A study of Mus musculus with 12 samples.

Results

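The mitochondrially encoded genes were taken as every row of the raw count matrix whose symbol begins with mt-, which gave 37 of 49585 rows. They are 13 protein genes, 2 ribosomal RNAs and 22 transfer RNAs, and all 37 had the same coordinates on the mitochondrial chromosome (mm10) in the deposited table and in GENCODE M21. RNA from whole lung of C57BL/6J mice that carried the melanoma line MO4 under the skin was sequenced from 4 groups of 3 libraries. The combination group was 22 months old and received anti-PD-1 and anti-IL-21R antibodies, the aged anti-PD-1 group was 22 months old and received anti-PD-1, the aged control group was 22 months old and received an isotype-matched rat antibody, and the young anti-PD-1 group was 2 months old and received anti-PD-1. The labels give injections of anti-PD-1 or control antibody on days 3, 7 and 11 after inoculation. Every group carried the tumor, so no lung from a mouse without the tumor was compared. The labels do not say whether the libraries of a group came from separate mice, and p-values here can speak only for the spread among these libraries.

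Mitochondrial DNA is a small circle that is copied into RNA from end to end on both strands, and the long transcripts are cut into messengers, ribosomal RNAs and transfer RNAs. Its protein genes encode core subunits of the respiratory chain: Nd1 to Nd6 and Nd4l belong to complex I, Cytb to complex III, Co1 to Co3 to complex IV, and Atp6 and Atp8 to the ATP synthase. The ribosomal RNAs mt-Rnr1 and mt-Rnr2 build the small and the large subunit of the mitochondrial ribosome, and the transfer RNAs serve that ribosome. Both ribosomal RNAs, and messengers other than mt-Nd6, acquire short A tails in mammals, whereas mature mitochondrial transfer RNAs do not. This bears on libraries made, as here, from poly(A)-selected RNA. Counts in transfer RNA rows therefore cannot be read as levels of mature transfer RNAs.

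The transcripts of the heavy strand carried 12 protein genes, both ribosomal RNAs and 14 transfer RNAs, and those of the light strand carried mt-Nd6 and 8 transfer RNAs. The transfer RNAs on which the results turn are shown as annotated, 5′ to 3′, with the anticodon in capitals. All but mt-Tw belong to the light-strand transcript (mm10, chrM:3772-3842, 4950-5016, 5018-5086, 5260-5326 and 14071-14139, in the order shown).
mt-Tq (glutamine, minus strand): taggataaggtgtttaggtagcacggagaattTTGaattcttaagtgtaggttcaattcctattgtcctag
mt-Tw (tryptophan, plus strand): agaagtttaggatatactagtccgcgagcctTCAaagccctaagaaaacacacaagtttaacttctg
mt-Ta (alanine, minus strand): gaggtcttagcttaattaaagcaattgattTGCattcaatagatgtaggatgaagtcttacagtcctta
mt-Ty (tyrosine, minus strand): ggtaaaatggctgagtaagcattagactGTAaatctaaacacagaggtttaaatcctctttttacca
mt-Te (glutamate, minus strand): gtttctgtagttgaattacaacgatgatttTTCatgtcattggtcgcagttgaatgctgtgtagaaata

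The last 24 bases of 5 protein genes are shown because tails matter to how these messengers are captured, with the stop codon, or the part of it that the DNA holds, in capitals. mt-Nd4, mt-Cytb and mt-Co3 end 1 base after their last whole codon, so that a T is all the DNA gives of their stop codon, which the A tail completes. The annotated ends lie at chrM:6849-6872, 11521-11544, 15265-15288, 9367-9390 and 13552-13575 (mm10), in the order shown, and mt-Nd6 is read from the minus strand.
mt-Co1: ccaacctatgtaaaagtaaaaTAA
mt-Nd4: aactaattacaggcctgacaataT
mt-Cytb: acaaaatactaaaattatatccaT
mt-Co3: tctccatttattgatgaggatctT
mt-Nd6: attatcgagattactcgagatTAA

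Of the 37 genes, 23 had enough counts to be tested: 12 protein genes, both ribosomal RNAs and 9 transfer RNAs. The transfer RNAs tested were 7 of the 8 of the light strand (mt-Tq, mt-Ta, mt-Tn, mt-Ty, mt-Ts1, mt-Te and mt-Tp) and 2 of the 14 of the heavy strand (mt-Tw and mt-Tt). Each of the 13 others had fewer than 25 counts over all 12 libraries, and 4 of these (mt-Tf, mt-Tv, mt-Ts2 and mt-Tl2) had none. The libraries were made with a directional kit, but the strand setting of the counting is not given in the sources used here. Reads from a light-strand gene and from the heavy-strand transcript that runs opposite to it therefore cannot be told apart in these counts, and this touches mt-Nd6 and every light-strand transfer RNA below.

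Levels per length spread over a wide range. In CPM, counts scaled to a common library size by TMM, divided by length in kilobases (CPM per kb), mt-Co1, a core subunit of complex IV, stood first with a median of 20136 over the 12 libraries (lowest 15489, highest 43978). mt-Cytb followed at 10914, mt-Nd1 at 7583, mt-Nd2 at 6128, mt-Nd6 at 4774, mt-Nd4 at 4700 and mt-Nd5 at 3157. The ribosomal RNAs stood at 2845 (mt-Rnr2) and 2546 (mt-Rnr1). Neighbors in this order had ranges over the libraries that overlapped at every step but 1, the step between mt-Atp6 (134.9) and mt-Tt (21.1).

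The other protein genes were far lower, and their sequence is not unique. A stretch of chromosome 1 holds a nuclear copy of part of the mitochondrial DNA, and 7 annotated pseudogenes of the count table lie in it (mm10, chr1:24611535-24616197, minus strand). Within each gene, all stretches of 50 bases were looked up in the other GENCODE transcripts: 100% of those of mt-Co2 also occur in a pseudogene transcript, 99.9% for mt-Co3, 99.5% for mt-Atp6, 98.8% for mt-Nd4l, 98.0% for mt-Nd3, 62.2% for mt-Nd4 and 51.1% for mt-Co1. The value for mt-Co1 also counts transcripts of Gm11512 and Gm13340, which are not among those 7 pseudogenes. mt-Nd2, mt-Nd5 and mt-Rnr2 shared 8.19%, 7.61% and 1.04% of their stretches with other transcripts. The start of mt-Co2 shows the match to the chromosome 1 copy, with its start codon in capitals. The same 60 bases occur without a change on the mitochondrial chromosome (chrM:7013-7072, plus strand) and in the copy Gm28661 (chr1:24615506-24615565, minus strand).
mt-Co2 and Gm28661: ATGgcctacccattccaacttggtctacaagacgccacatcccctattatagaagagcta

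Gm28661 and mt-Co2 aligned over 681 bases with 0 substitutions, and the copies of mt-Atp6 (678 bases), mt-Co3 (783 bases), mt-Nd4l (294 bases) and mt-Nd4 (876 bases) likewise held 0. mt-Co2, mt-Co3, mt-Nd3, mt-Atp6 and mt-Nd4l had median levels of 355.9, 274.2, 201.5, 134.9 and 13.2 CPM per kb. mt-Atp8, which lies opposite a gap between annotated copies and shares no such stretch with a transcript, had 225 counts in all, of which 196 were in the second aged control library. The 7 other protein genes had medians between 3157 and 20136 CPM per kb. How the authors treated reads that match several places is not given in the sources used here. Counts of mt-Co2, mt-Atp6, mt-Co3, mt-Nd3 and mt-Nd4l are therefore uncertain, and their low level is not a statement about the messenger. Those of mt-Nd4 and mt-Co1, and to a small extent mt-Nd2, mt-Nd5 and mt-Rnr2, are uncertain over the part of their length that is shared.

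**Figure D1:**
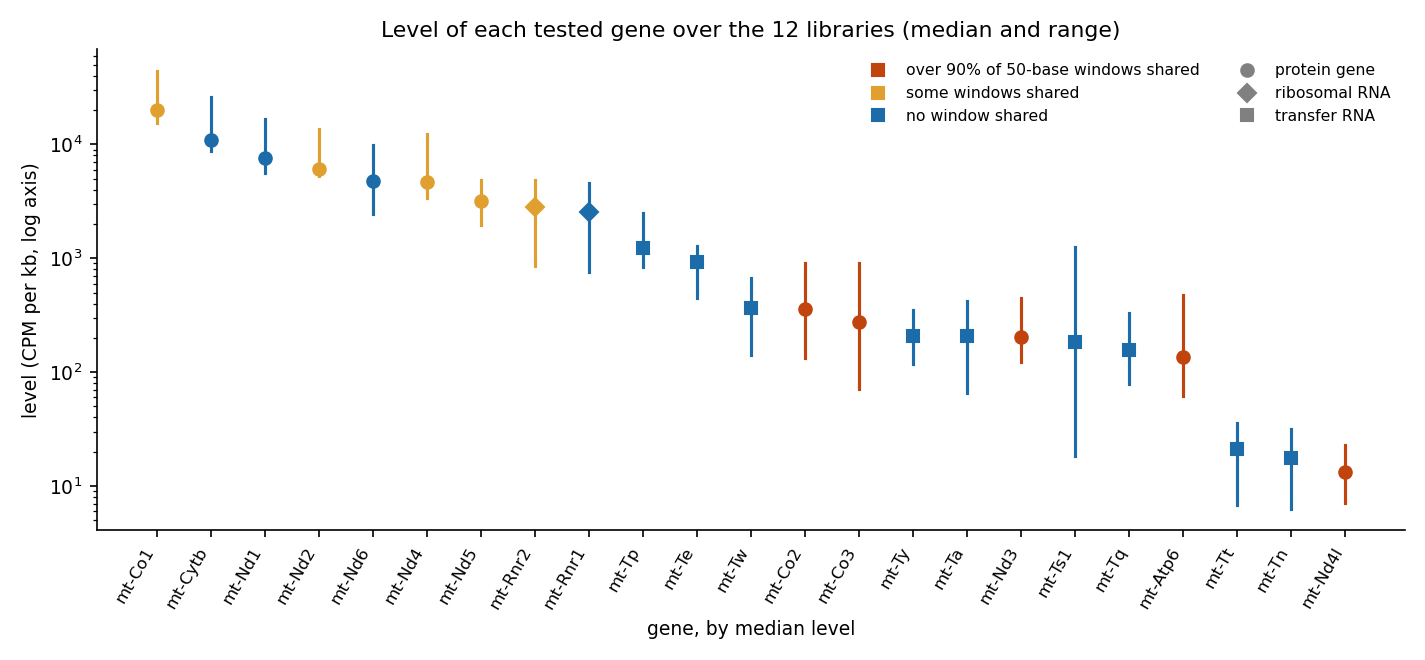
Level of each of the 23 tested genes in CPM per kb (log axis), as the median (symbol) and the range (line) over the 12 libraries, ordered by median; circles are protein genes, diamonds ribosomal RNAs and squares transfer RNAs. The 5 genes with over 90% of their 50-base stretches shared with other transcripts (red) lie at or below a median of 355.9, and the 7 protein genes from mt-Co1 to mt-Nd5 at or above 3157.

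Counts summed to 16021877 to 22058620 per library. Surfactant gene Sftpc, a marker of alveolar type 2 cells, had 9465 to 17990.5 CPM and the club cell gene Scgb1a1 12756 to 25491 CPM, so the tissue label matched its defining markers. The combination libraries were not alike: Rn18s-rs5, a row that collects cytosolic 18S ribosomal RNA sequence, had 695, 3104 and 4800 CPM in the combination libraries 1 to 3, against 401 to 696 CPM in the 9 others. Rn7sk and Rpph1, both non-coding nuclear RNAs made by RNA polymerase III, were likewise highest in the second and the third combination library. For the mitochondrial genes and for all genes tested, counts of calls that involve the combination group are given with and without those libraries. Calls within other gene lists are given only with those libraries included. In bulk tissue, fewer cells of a type and less RNA per cell cannot be told apart.

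Transcripts of the 37 genes took 11.5%, 14.9% and 13.7% of the counts in the combination libraries, 7.88%, 8.31% and 11.9% in the aged anti-PD-1 libraries, 7.32%, 10.4% and 7.97% in the aged control libraries and 7.22%, 6.05% and 7.01% in the young anti-PD-1 libraries. Every aged library lay above every young one, though narrowly (at least 7.32% against at most 7.22%). Among the aged groups, the first combination library (11.5%) lay below the third of the anti-PD-1 libraries (11.9%). The combination and aged anti-PD-1 groups thus overlap, whereas every combination library lay above the aged control libraries. The protein genes made up most of it, with a mean of 12.4% of all counts in the combination group (10.8% to 13.8%), 8.57% in the aged anti-PD-1 libraries (7.24% to 10.9%), 7.70% in the aged control libraries (6.39% to 9.48%) and 6.48% in the young anti-PD-1 libraries (5.77% to 6.99%).

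The ribosomal RNAs followed another order. They took 0.919 ± 0.255% of all counts in the combination group, 0.750 ± 0.141% in aged anti-PD-1, 0.844 ± 0.102% in aged control and 0.268 ± 0.0555% in young anti-PD-1 (SD, n = 3 each). The 9 aged libraries lay between 0.622% and 1.09%, and the 3 young libraries between 0.218% and 0.328%, with no overlap. The transfer RNAs took 0.0354 ± 0.00418% in the combination group, 0.0276 ± 0.00509% in aged anti-PD-1, 0.0220 ± 0.00404% in aged control and 0.0146 ± 0.00154% in young anti-PD-1 (SD, n = 3 each). Here too every aged library (at least 0.0189%) lay above the young libraries (at most 0.0163%). No test was run over a class, and an exact permutation test of 3 libraries against 3 could not give a p below 0.1.

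**Figure D2:**
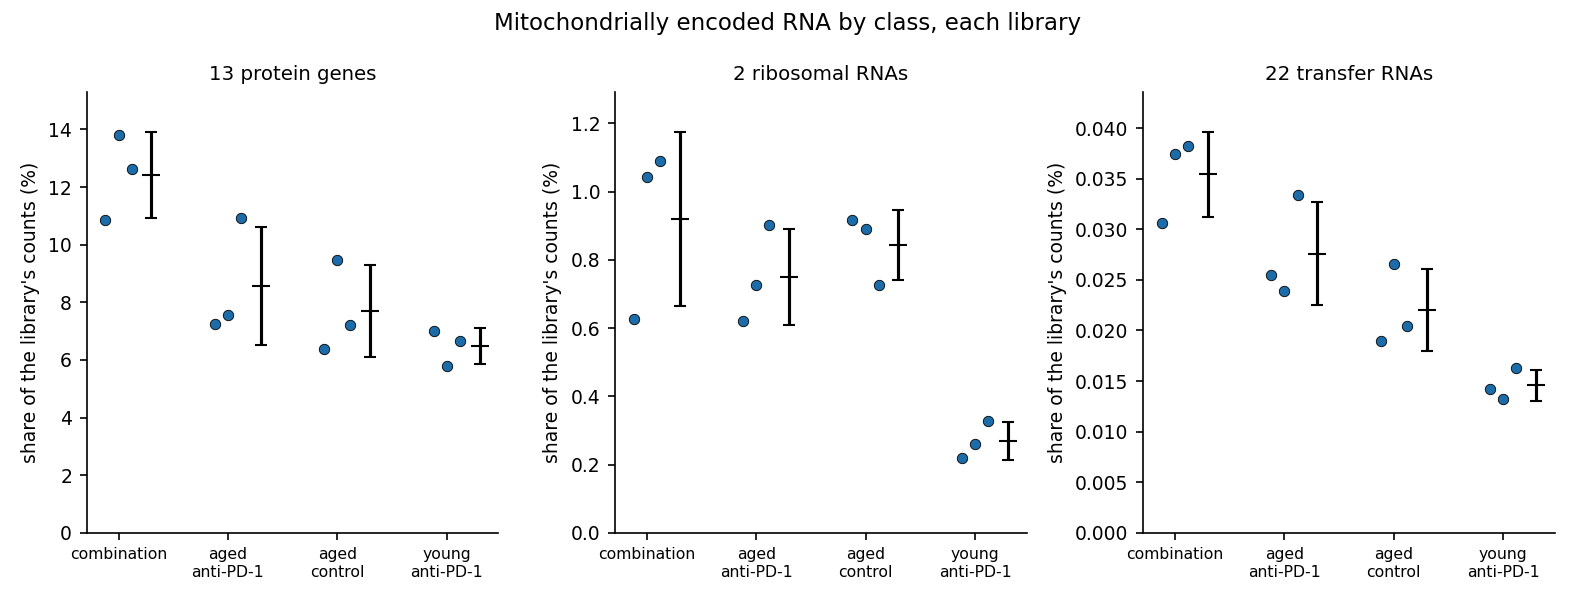
Share of each library's counts (%, vertical axes from 0) in the 13 protein genes, the 2 ribosomal RNAs and the 22 transfer RNAs, by group; points are libraries 1 to 3 from left to right, and the bar beside them is the mean ± SD (n = 3). For the ribosomal RNAs the 9 aged libraries are apart from the young anti-PD-1 ones (at least 0.622% against at most 0.328%). For the protein genes the lowest aged control library (6.39%) lies below the highest young one (6.99%), and the combination and aged anti-PD-1 groups overlap. There the combination libraries lie above all aged control and young ones, and the aged anti-PD-1 libraries above all young ones.

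Ratios within a library do not depend on scaling between libraries. Per 100 protein gene counts there were 5.76, 7.56 and 8.63 ribosomal RNA counts in the combination libraries, 8.59, 9.61 and 8.25 in the aged anti-PD-1 libraries, 14.3, 9.40 and 10.1 in the aged control libraries and 3.13, 4.48 and 4.92 in the young anti-PD-1 libraries. All 9 aged libraries were above all 3 young ones, and the first combination library came closest to them. mt-Rnr2 and mt-Rnr1 kept a similar ratio to each other in the aged groups, with 187 ± 10.7, 181 ± 3.43 and 187 ± 2.65 mt-Rnr2 counts per 100 mt-Rnr1 counts in the combination, aged anti-PD-1 and aged control groups, and 208 ± 19.2 in the young anti-PD-1 group (SD, n = 3 each).

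The ratio of mt-Nd6 to mt-Nd1, which lie on opposite strands, also parted the aged libraries from the young anti-PD-1 libraries. mt-Nd6, the single protein gene of the light strand and a subunit of complex I, had 28.7 ± 2.81, 34.8 ± 1.68 and 31.0 ± 1.19 counts per 100 counts of its heavy-strand partner mt-Nd1 in the combination, aged anti-PD-1 and aged control groups, and 24.6 ± 0.808 in the young anti-PD-1 group (SD, n = 3 each). All 9 aged libraries (26.8 to 36.4) lay above the young libraries (23.8 to 25.4). Over the whole strand the groups did overlap: mt-Nd6 and the 8 transfer RNAs of the light strand together took 2.93 ± 0.230%, 3.48 ± 0.199% and 3.10 ± 0.193% of the mitochondrial counts in the combination, aged anti-PD-1 and aged control groups, and 2.57 ± 0.241% in the young anti-PD-1 group (SD, n = 3 each), and the lowest combination library (2.77%) lay below the highest young one (2.85%). The heavy-strand messenger mt-Cytb did not separate: it had 179 ± 9.29, 174 ± 2.69, 176 ± 3.45 and 179 ± 10.6 counts per 100 mt-Nd1 counts in the combination, aged anti-PD-1, aged control and young anti-PD-1 groups (SD, n = 3 each). mt-Nd5, whose messenger extends opposite mt-Nd6, did not part all aged from all young libraries. Like the mt-Nd6 ratio, it set the aged anti-PD-1 group apart. It had 51.2 to 66.9 counts per 100 mt-Nd1 counts in the combination libraries and 76.7 to 84.8 in the aged anti-PD-1 libraries. The aged control libraries had 51.3 to 71.5 and the young anti-PD-1 libraries 64.4 to 68.7. The aged anti-PD-1 range did not overlap any of the others. For mt-Nd6 per 100 mt-Nd1 counts that group had 33.09 to 36.44, against at most 31.99 in the others. Its light-strand share of the mitochondrial counts was narrowly apart too (at least 3.298% against at most 3.225%). So was its transfer RNA share of those counts (at least 0.2818% against at most 0.2785%).

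**Figure D3:**
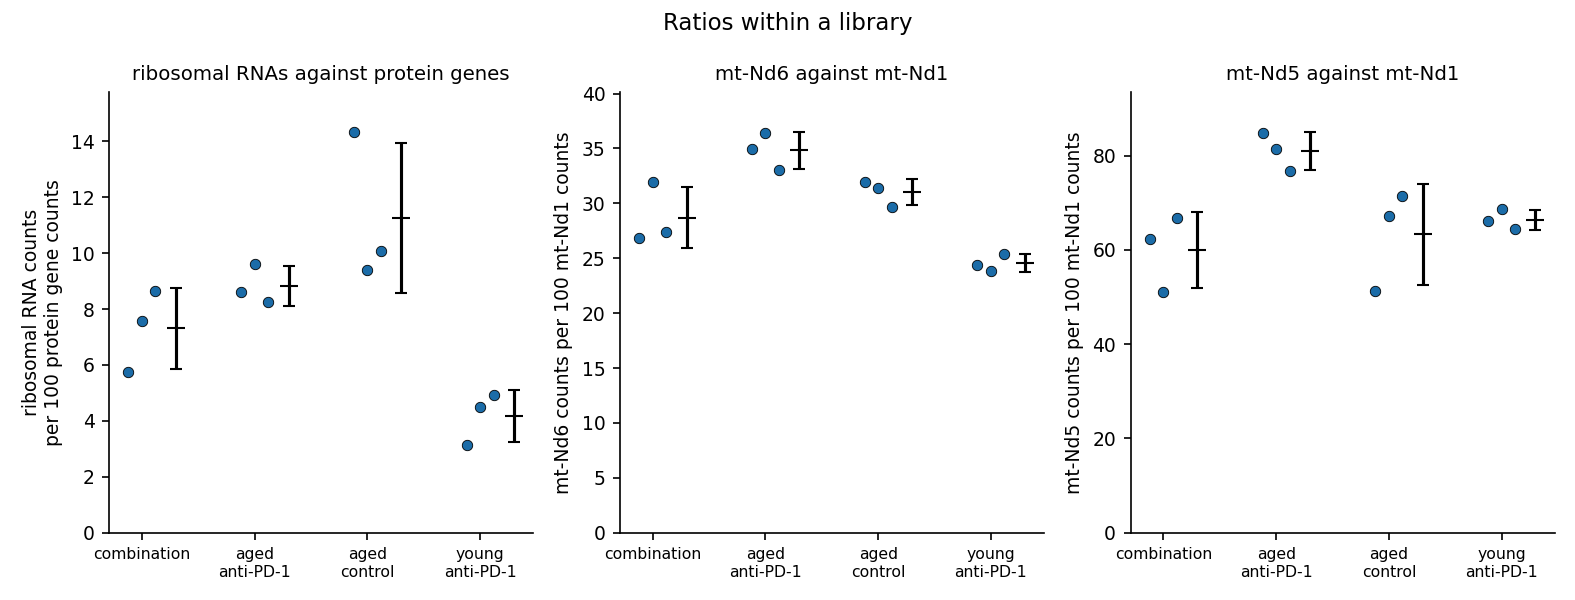
Ratios of counts within each library, by group (vertical axes from 0): ribosomal RNA counts per 100 protein gene counts, mt-Nd6 counts per 100 mt-Nd1 counts and mt-Nd5 counts per 100 mt-Nd1 counts. Points are libraries 1 to 3 from left to right and bars the mean ± SD (n = 3); in the first and second panel the young anti-PD-1 libraries lie lowest, and in the third the aged anti-PD-1 libraries lie highest, at 76.7 to 84.8.

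The comparison of aged with young mice under the same anti-PD-1 treatment asked what differs with age under that treatment. No young group received the control antibody, so a difference with age without anti-PD-1 was not measured. Both ribosomal RNAs, 5 of the 9 transfer RNAs tested and mt-Nd6 were higher in aged than in young anti-PD-1 mice, and none of the 11 heavy-strand protein genes tested passed the threshold (edgeR quasi-likelihood test, Benjamini-Hochberg adjusted p under 0.05). That is 8 of 23 genes higher and 0 lower, where over all 18556 genes tested 8.09% were called higher and 7.16% lower. The median log2 fold change was 1.48 for the 2 ribosomal RNAs, 1.03 for the 9 transfer RNAs and 0.37 for the 11 heavy-strand protein genes, beside -0.01 over all genes tested. The ranges of 12 of 23 genes did not overlap and were higher in the aged anti-PD-1 libraries, as were those of 19.7% of all genes tested.

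mt-Rnr1 had 2027, 2376 and 3194 CPM in the aged anti-PD-1 libraries, against 726, 791 and 1005 CPM in the young anti-PD-1 libraries. The lowest aged library was thus above the highest young one, and the gene was 3.01-fold higher (log2 fold change 1.59 ± 0.25 SE, adjusted p = 0.00172). mt-Rnr2 had 3733, 4328 and 5668 CPM in the aged anti-PD-1 libraries, against 1362, 1665 and 2267.5 CPM in the young anti-PD-1 libraries. It was 2.59-fold higher (log2 fold change 1.37 ± 0.25, adjusted p = 0.00348), again with no overlap. The aged libraries that got no anti-PD-1 were at a similar level, with 3244, 3264 and 2487 CPM of mt-Rnr1 and 6118, 5996 and 4675 CPM of mt-Rnr2 in the aged control group.

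mt-Tq, the transfer RNA for glutamine, had 11.4, 14.2 and 23.4 CPM in the aged anti-PD-1 libraries, against 6.21, 5.55 and 6.71 CPM in the young anti-PD-1 libraries (log2 fold change 1.40 ± 0.23, adjusted p = 0.00196). mt-Te, the transfer RNA for glutamate that adjoins mt-Nd6, had 59.6, 71.7 and 72.1 CPM in the aged anti-PD-1 libraries, against 30.8, 30.8 and 38.2 CPM in the young anti-PD-1 libraries (1.03 ± 0.16, adjusted p = 0.00152). mt-Ty, for tyrosine, averaged 16.1 ± 3.65 CPM in aged anti-PD-1 and 8.80 ± 0.821 CPM in young anti-PD-1 mice (SD, n = 3 each; 0.87 ± 0.19 on the log2 scale, adjusted p = 0.00793). For these transfer RNAs no aged library reached down to a young one.

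mt-Tw, for tryptophan, and mt-Ta, for alanine, were higher by 1.03 ± 0.25 and 1.17 ± 0.30 on the log2 scale (adjusted p = 0.0182 and 0.0203). mt-Nd6 had 2323, 2633 and 3543 CPM in the aged anti-PD-1 libraries, against 1559, 1279 and 1853 CPM in the young anti-PD-1 libraries (0.86 ± 0.23, adjusted p = 0.0235). These 3 calls rested on single libraries. mt-Tw and mt-Ta held in 2 of the 6 repeats that leave out 1 library, and missed the threshold when the library left out was aged anti-PD-1 number 1 or 3 or young anti-PD-1 number 1 or 2. mt-Nd6 held in 3 of 6, and missed it when the library left out was aged anti-PD-1 number 3 or young anti-PD-1 number 1 or 2. mt-Rnr1, mt-Rnr2, mt-Tq, mt-Ty and mt-Te were called whichever of the 6 libraries was left out, with adjusted p of at most 0.0416.

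The heavy-strand protein genes had smaller estimates as a class, and none passed the test with all 12 libraries. mt-Co1 had 29030.3, 29209.5 and 46745 CPM in the aged anti-PD-1 libraries, against 30740.2, 23931 and 27739 CPM in the young anti-PD-1 libraries. The groups overlap, and the estimate was 0.35 ± 0.23 on the log2 scale (adjusted p = 0.329). mt-Nd1, mt-Nd2, mt-Nd4 and mt-Cytb had estimates of 0.37, 0.22, 0.40 and 0.34 with adjusted p between 0.274 and 0.521. mt-Nd5 came closest (0.65 ± 0.22, adjusted p = 0.0600), and it was called higher in 4 of 10 other settings, which were DESeq2, library totals alone, no filter on low counts and a fit of only these groups. mt-Co3, whose counts are uncertain, was the single tested gene with a negative estimate (-0.90 ± 0.50, adjusted p = 0.261). Without the third of the aged anti-PD-1 libraries its estimate was -1.77 and it was called lower (adjusted p = 0.0159).

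Other markers moved in the same comparison, where 8.09% of all genes tested were called higher and 7.16% lower. All 4 B cell and plasma cell markers were higher, with a summed level of 374 to 545 CPM in the aged anti-PD-1 libraries against 116 to 138 CPM in the young anti-PD-1 libraries, and 2 of 4 T cell markers were higher with overlapping sums (27.4 to 72.5 CPM against 23.7 to 32.2 CPM). Of the 6 lung markers 4 were lower, among them Sftpc (-0.78 ± 0.17, adjusted p = 0.00836), and the list summed to 26596 to 30704 CPM against 40309 to 52409 CPM. Of 12 cardiac muscle genes, Nppa and Pln were higher, while the summed cardiac level overlapped (637 to 1010.4 CPM against 514 to 798 CPM). No gene of these lists was at 0 in all libraries, and the part of these markers in the result was not tested. The cytosolic and nuclear RNAs that lack a poly(A) tail (Rn18s-rs5, Rn7sk and Rpph1, chosen after their values were seen) were not higher with age: their median log2 fold change was -1.11, none was called, and they summed to 403 to 496 CPM in the aged anti-PD-1 libraries and 451 to 690.3 CPM in the young anti-PD-1 libraries.

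The comparison of anti-PD-1 with the control antibody in aged mice asked what the treatment changes at that age. Of 23 mitochondrial genes, 1 was called higher and 0 lower, where 5.34% of all genes tested were called higher and 5.58% lower. That gene was mt-Tq, with 11.4, 14.2 and 23.4 CPM in the aged anti-PD-1 libraries, against 7.43, 10.7 and 9.19 CPM in the aged control libraries (log2 fold change 0.84 ± 0.22, adjusted p = 0.0306). The lowest treated library was little above the highest control library, and mt-Tq was the 1 mitochondrial gene whose range was separate and higher, where 16.1% of all genes tested had such ranges. mt-Tq missed the threshold when the third library of the aged anti-PD-1 group, or any 1 of the control libraries, was left out (adjusted p up to 0.121). Without that aged library mt-Co3 was called lower instead.

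The remaining estimates lay on both sides of 0, with 12 of 23 positive and a median of 0.00. mt-Rnr1 and mt-Rnr2 had estimates of -0.24 ± 0.24 and -0.29 ± 0.24 (adjusted p = 0.538 and 0.458), and mt-Co1 of 0.08 ± 0.23 (adjusted p = 0.841). mt-Atp6 and mt-Co3, both of uncertain counts, had the most negative estimates, at -1.46 ± 0.49 (adjusted p = 0.0854) and -1.13 ± 0.50 (adjusted p = 0.170). A miss of the threshold does not show that these levels are equal.

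The comparison of the combination with anti-PD-1 alone in aged mice asked what blocking the IL-21 receptor adds. Here the heavy-strand protein genes moved: 7 of 23 genes were called higher and 0 lower, all 7 of them heavy-strand protein genes, where 4.67% of all genes tested were called higher and 4.35% lower. They were mt-Nd1, mt-Nd2, mt-Nd3, mt-Nd4, mt-Cytb, mt-Atp6 and mt-Co3. Neither ribosomal RNA, none of the 9 transfer RNAs and not mt-Nd6 was called. The median log2 fold change was 0.78 for the 11 heavy-strand protein genes, 0.49 for the ribosomal RNAs and 0.62 for the transfer RNAs, beside -0.01 over all genes tested. Ranges of 12 of 23 genes did not overlap and were higher in the combination libraries, beside 15.7% of all genes tested.

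mt-Nd4, a membrane-arm subunit of complex I, had 9943, 17024 and 11943 CPM in the combination libraries, against 5694, 6189 and 9323 CPM in the aged anti-PD-1 libraries. It was 1.83-fold higher (log2 fold change 0.88 ± 0.24, adjusted p = 0.0348). mt-Cytb, the cytochrome b of complex III, had 19528, 29735 and 24262 CPM in the combination libraries, against 11505, 12382 and 18915 CPM in the aged anti-PD-1 libraries (0.78 ± 0.22, adjusted p = 0.0434). For both genes the third aged anti-PD-1 library came close to the first combination library, and the groups did not overlap.

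mt-Nd1 and mt-Nd2, further complex I subunits, were higher by 0.74 ± 0.22 and 0.77 ± 0.21 on the log2 scale (adjusted p = 0.0483 and 0.0384). mt-Co1 had 50158, 67946 and 58153 CPM in the combination libraries, against 29030.3, 29209.5 and 46745 CPM in the aged anti-PD-1 libraries. Its estimate was of the same size (0.75 ± 0.23) and just missed the threshold (adjusted p = 0.0549). mt-Nd5 and mt-Nd4l, at 0.30 ± 0.22 and 0.33 ± 0.30, had the lowest estimates of the class.

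The other called genes have uncertain counts because the nuclear copy holds nearly all of their sequence. That holds in part for mt-Nd4, which shares 62.2% of its 50-base stretches. mt-Co3 had 714, 337 and 308 CPM in the combination libraries, against 55.5, 58.1 and 197 CPM in the aged anti-PD-1 libraries (log2 fold change 2.13 ± 0.51, adjusted p = 0.0325), and its estimate was 3.00 with the third of the aged anti-PD-1 libraries left out. mt-Atp6 had 204, 201 and 290.2 CPM in the combination libraries, against 50.5, 41.8 and 100.3 CPM in the aged anti-PD-1 libraries (1.85 ± 0.50, adjusted p = 0.0470). mt-Nd3 had 111, 154 and 105 CPM in the combination libraries, against 64.0, 48.8 and 74.8 CPM in the aged anti-PD-1 libraries (0.98 ± 0.18, adjusted p = 0.00936). The rows of the chromosome 1 copy summed to 11453, 19804 and 9163 counts in the combination libraries, against 5576, 3837 and 11911 counts in the aged anti-PD-1 libraries, or 0.416% to 0.737% against 0.252% to 0.510% of the mitochondrial counts.

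The number of calls rested on single libraries. Among combination libraries, leaving out the second left 1 call and leaving out the third left 2. Among aged anti-PD-1 libraries, leaving out the first left 1, the second 1 and the third gave 10. mt-Nd3 was called in all 6 of these repeats (adjusted p of at most 0.0487). Without both the second and the third combination library, in which Rn18s-rs5 stood apart, 0 mitochondrial genes and 7 genes in all were called, with 3 mitochondrial genes at an unadjusted p under 0.05. That fit has a single combination library, which is assumed to vary like the other groups.

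**Figure D4:**
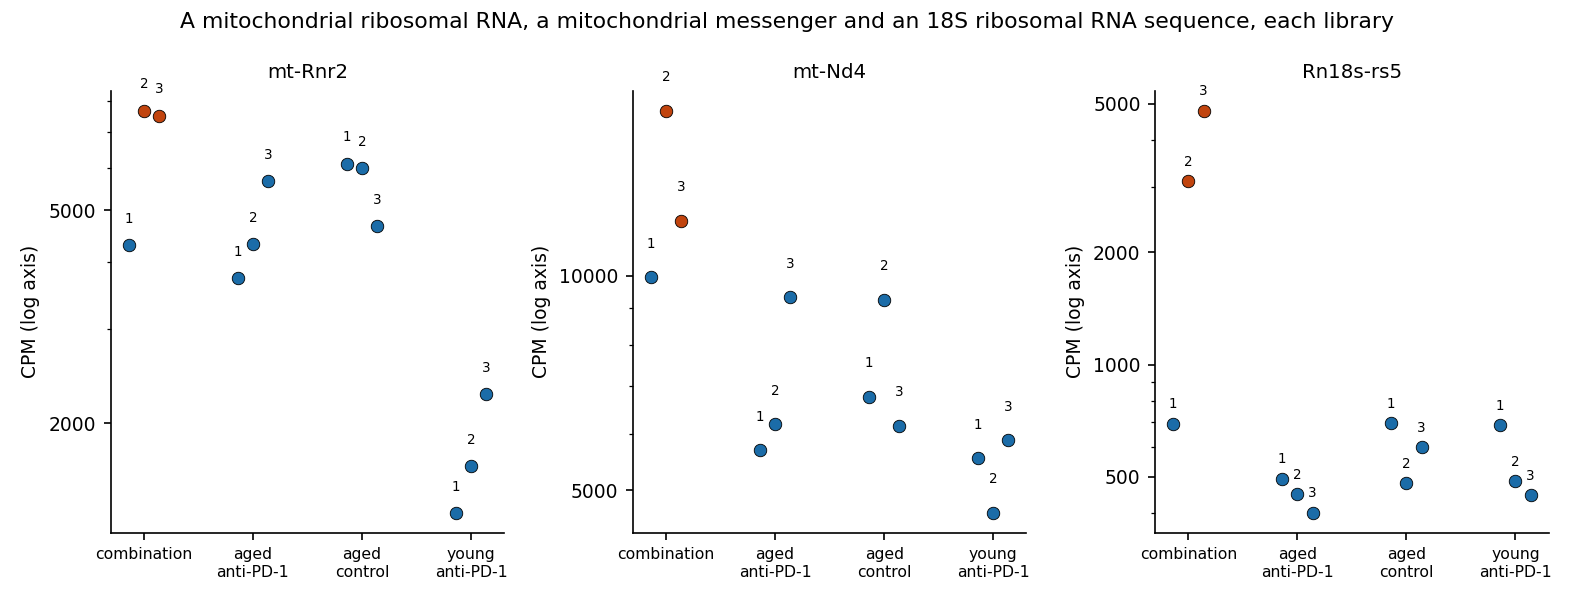
CPM (log axis) of mt-Rnr2, mt-Nd4 and Rn18s-rs5 in each library, by group, with the library number above each point; the second and the third combination library are in red. Rn18s-rs5 stands at 3104 and 4800 CPM in those libraries and at 401 to 696 CPM in the 10 others, while mt-Nd4 is higher in all 3 combination libraries than in the aged anti-PD-1 libraries and mt-Rnr2 is lowest in the young anti-PD-1 libraries.

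The ribosomal RNAs were higher in the second and the third combination library than in the first. mt-Rnr2 had 4315, 7684 and 7523 CPM in the combination libraries, against 3733, 4328 and 5668 CPM in the aged anti-PD-1 libraries (log2 fold change 0.51 ± 0.24, adjusted p = 0.202), so the first combination library lay inside the range of the aged anti-PD-1 group. Rn18s-rs5, Rn7sk and Rpph1 were called in the same comparison, with estimates of 2.68, 3.70 and 3.56 on the log2 scale. Of 8 erythroid genes, 5 were higher (median 1.34), where 4.67% of all genes tested were called higher. The list summed to 27939, 46926 and 19058 CPM in the combination libraries, against 10552, 9999.95 and 13175.5 CPM in the aged anti-PD-1 libraries. The part of these RNAs in the result was not tested. No gene of the cardiac, brown fat, T cell, B cell, alveolar macrophage, melanoma or lung lists was called in this comparison, and 1 of 6 ciliated airway genes was higher (Rsph1, 0.72 ± 0.16, adjusted p = 0.0171).

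Against the aged control group, the combination gave no call: 0 of 23 mitochondrial genes and 0% of all genes tested passed edgeR's adjusted threshold. At an unadjusted p under 0.05 there were 15 of 23 mitochondrial genes and 1228 genes in all, and DESeq2 called 3 mitochondrial genes among 68. All 23 estimates were positive, with a median log2 fold change of 0.74 for the 12 protein genes, 0.22 for the ribosomal RNAs and 0.59 for the transfer RNAs. The ranges of 14 of 23 genes did not overlap and were higher in the combination group, where 3.92% of all genes tested had such ranges.

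mt-Co1 had 50158, 67946 and 58153 CPM in the combination libraries, against 26499, 41061 and 31480.2 CPM in the aged control libraries (log2 fold change 0.83 ± 0.23, adjusted p = 0.423). mt-Cytb had 19528, 29735 and 24262 CPM in the combination libraries, against 12576, 17687 and 12395 CPM in the aged control libraries (0.79 ± 0.22, adjusted p = 0.447). mt-Tp, the transfer RNA for proline, had the lowest p of the 23 mitochondrial genes, with 148, 168 and 157 CPM in the combination libraries, against 73.2, 116 and 77.4 CPM in the aged control libraries (0.83 ± 0.21, adjusted p = 0.402). In each case every combination library was above every control library. Without the second and the third combination library, 0 mitochondrial genes and 15 genes in all were called. The comparisons are not independent: this one shares the combination libraries with the comparison before it, and the other 3 share the aged anti-PD-1 libraries. It also shares the aged control libraries with the comparison of anti-PD-1 with the control antibody. Nor are the mitochondrial genes independent of each other, since they are cut from the same long transcripts.

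**Figure D5:**
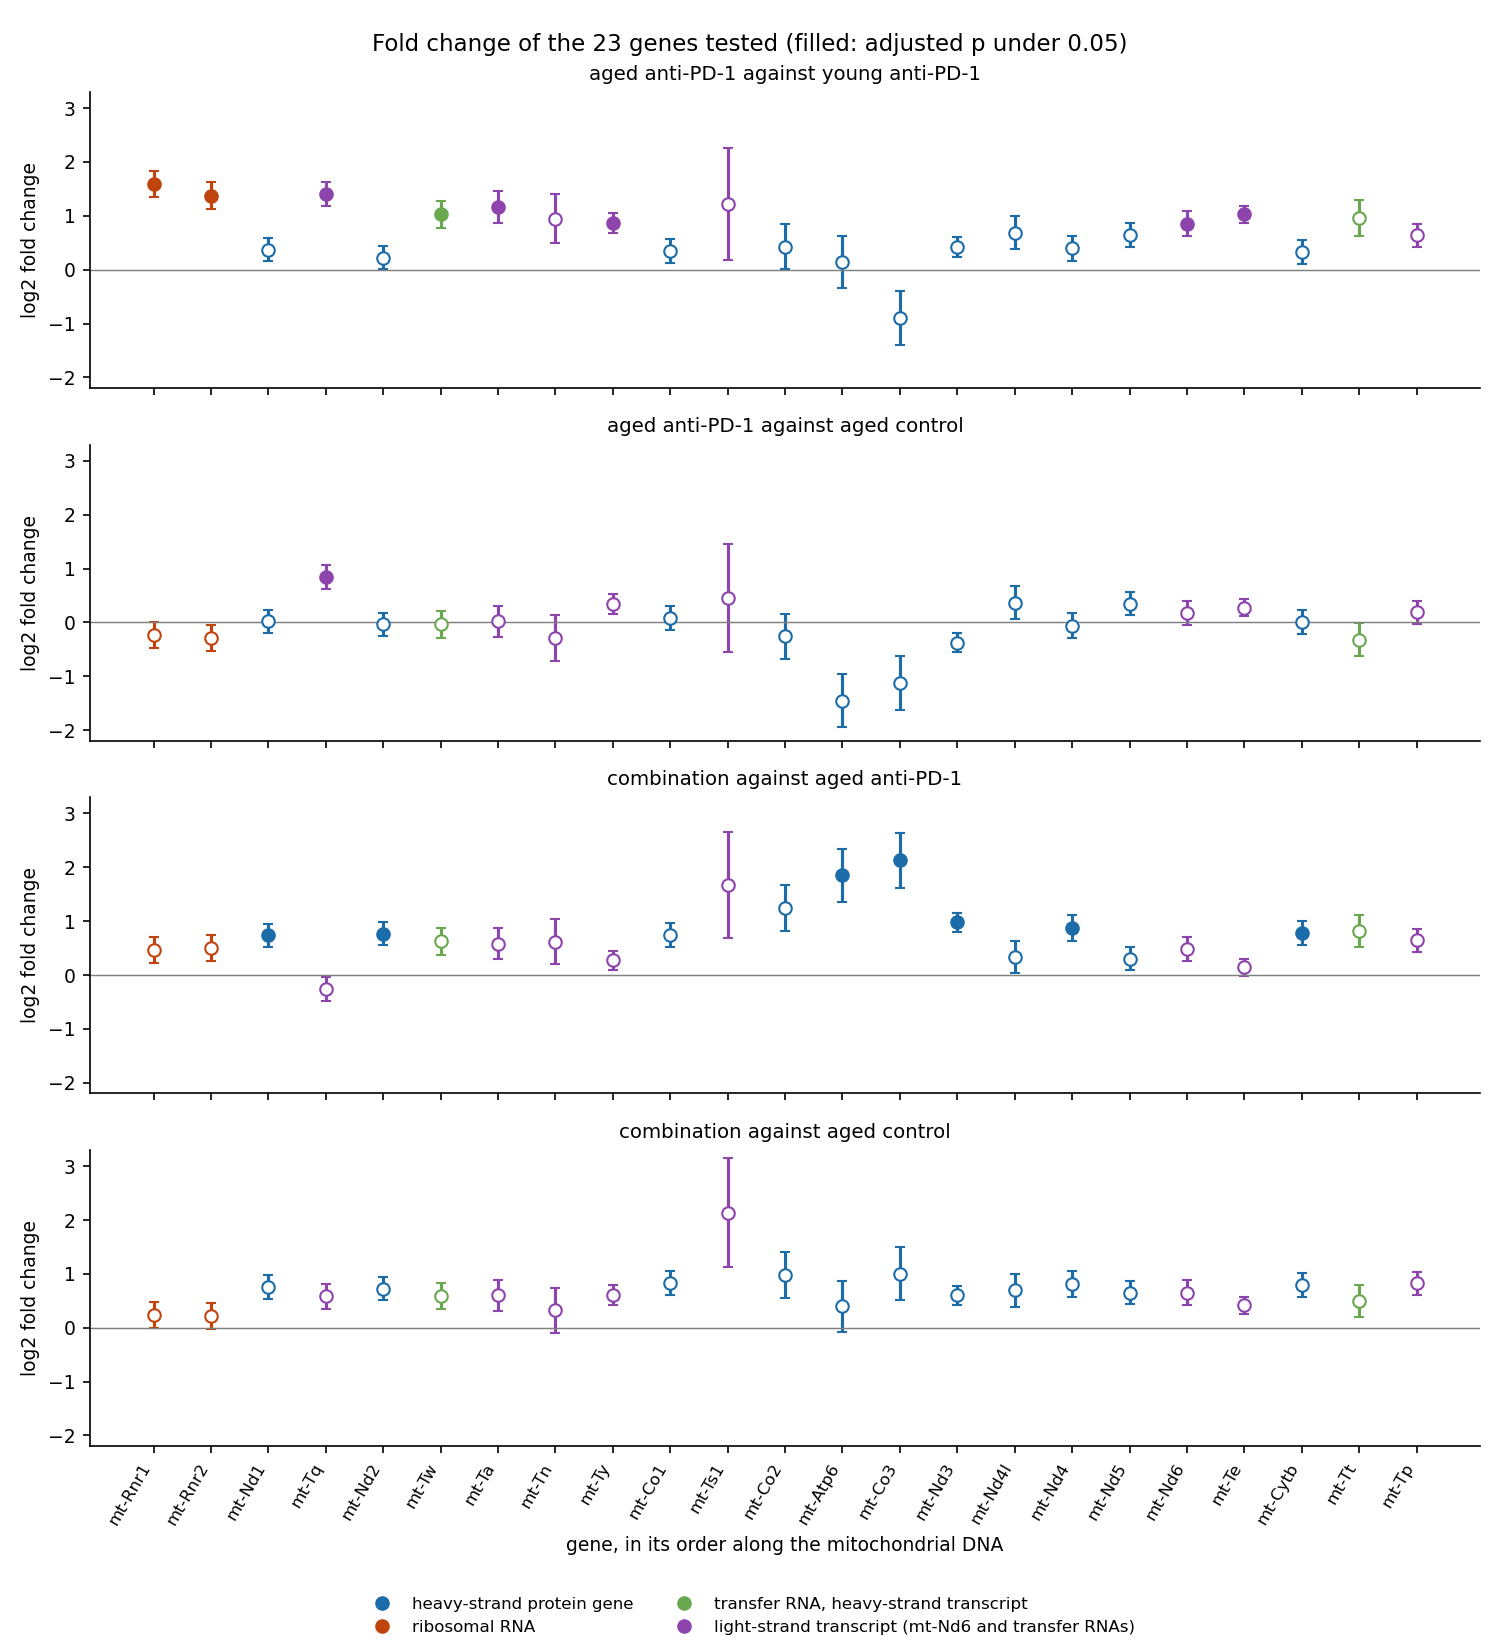
Log2 fold change ± SE of the 23 tested genes, in their order along the mitochondrial DNA, for each of the 4 comparisons; filled points passed an adjusted p of 0.05 in edgeR. In the first panel both ribosomal RNAs (red), mt-Nd6 and 5 transfer RNAs are filled and no heavy-strand protein gene (blue) is, in the second mt-Tq alone is, in the third 7 heavy-strand protein genes are, and in the last no gene is.

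The nucleus encodes the other subunits of the respiratory chain, the proteins of the mitochondrial ribosome and the enzymes that copy and cut mitochondrial RNA. Of the 74 nuclear respiratory chain genes, 0 were higher and 3 lower in the aged anti-PD-1 group than in the young anti-PD-1 group (median log2 fold change -0.20), a smaller share than the 7.16% of all genes tested that were lower there. These were the complex I genes Ndufb11 and Ndufv3 and the complex III gene Uqcrfs1. Against the aged control group, 0 were higher and 15 lower in the aged anti-PD-1 group (median -0.31), beside 5.58% of all genes tested lower. The lowest p belonged to Uqcrfs1, the Rieske protein of complex III (-0.44 ± 0.10, adjusted p = 0.0150), Ndufa6 of complex I (-0.40 ± 0.09, adjusted p = 0.0195) and Atp5d of the ATP synthase (-0.58 ± 0.14, adjusted p = 0.0201). In the combination group 10 of 74 were higher and 0 lower than with anti-PD-1 alone (median 0.29), beside 4.67% of all genes tested higher. They were led by Uqcrfs1 (0.45 ± 0.10, adjusted p = 0.0150), Cox7a2 of complex IV (0.48 ± 0.11, adjusted p = 0.0219) and Sdhc of complex II (0.40 ± 0.10, adjusted p = 0.0234). None was called against the aged control group (median -0.03). With the second and the third combination library left out, only 7 genes of any kind were called against anti-PD-1 alone.

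Of the genes for proteins of the mitochondrial ribosome, 79 of 83 were tested. In the aged anti-PD-1 group 0 were higher and 6 lower than in the young anti-PD-1 group (median log2 fold change -0.15), a share close to the 7.16% of all genes tested that were lower. Against the aged control group 0 were higher and 9 lower (median -0.18), beside 5.58% of all genes tested lower. The combination group had 8 higher and 0 lower than anti-PD-1 alone (median 0.18), beside 4.67% of all genes tested higher, and no call against the aged control group (median 0.01). Mrps30 was called in the first 3 comparisons, at -0.48 ± 0.10, -0.42 ± 0.10 and 0.49 ± 0.10 (adjusted p = 0.00712, 0.0214 and 0.0128), while mt-Rnr1 and mt-Rnr2, the RNAs of the same ribosome, had estimates of 1.59 and 1.37 in the first of these.

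Of 30 genes of the machinery for mitochondrial DNA expression, 0 were higher and 1 lower in the aged anti-PD-1 than in the young anti-PD-1 group. That was Hsd17b10, a subunit of the mitochondrial RNase P (-0.39 ± 0.10, adjusted p = 0.0203), where 7.16% of all genes tested were lower. Against the aged control group 0 were higher and 1 lower, beside 5.58% of all genes tested lower. It was the oligoribonuclease gene Rexo2 (-0.33 ± 0.10, adjusted p = 0.0483). In the combination group 1 gene was higher and 1 lower than with anti-PD-1 alone, beside 4.67% of all genes tested higher and 4.35% lower. Rexo2 was higher in that comparison (0.38 ± 0.10, adjusted p = 0.0311). Polrmt, the mitochondrial RNA polymerase, was lower there, at 8.18 ± 0.548 CPM in the combination group and 12.8 ± 0.993 CPM in aged anti-PD-1 (SD, n = 3 each; -0.65 ± 0.15, adjusted p = 0.0201). Of 11 regulators of mitochondrial biogenesis, 1 was called in any comparison, the orphan nuclear receptor gene Esrrg. It was higher in the aged anti-PD-1 than in the young anti-PD-1 group (1.08 ± 0.24, adjusted p = 0.0105), where 8.09% of all genes tested were higher.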

How the data were processed

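The authors deposited raw counts of reads per gene, 1 column per library, with gene symbols, coordinates and strands in the same table. Per the submitters' processing notes, the tools were bcl2fastq 1.8.4, Trimmomatic, HISAT2 and featureCounts 1.6.3 with mm10, and per the labels' protocols the libraries were poly(A)-selected and directional. Options, annotation release, strand setting and the treatment of reads with several matches are not given in the sources used here. The members and all gene lists were chosen with earlier results of these data known, and 3 lists (nuclear RNAs without a tail, histones, small nuclear and nucleolar RNAs) after their values were seen.

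The filter was filterByExpr with the groups (count minimum 10, total minimum 15), and 18556 of 49585 genes passed. 1 edgeR 4.0.16 quasi-likelihood fit (R 4.3.3, TMM, robust, 12 libraries, 4 group means, 8 residual degrees of freedom) gave two-sided tests, adjusted by Benjamini-Hochberg across every gene tested and called under 0.05. The common biological coefficient of variation was 0.156. CPM values are scaled by TMM, and shares use all counts. Libraries of a group differed beyond sampling noise (chi-square per degree of freedom 9.61 to 48.1), so none was counted as a duplicate. The fit was tested on simulated data. There all libraries shared the same gene means apart from the genes changed on purpose. That test therefore does not speak to the combination libraries that stood apart. Genes outside the members were named by a rule: up to 3 called genes of a list per comparison, those with the smallest adjusted p. Sequences came from GENCODE M21 transcripts, and copies were aligned with Biopython 1.88. Alternatives were DESeq2 1.42.0, limma-voom (limma 3.58.1), other size factors and filters, the replicate number as a block, fits of 2 groups, and leaving out libraries.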

Additional observations from a re-analysis of the deposited data

How the results depend on the processing

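Of 1518 repeats of single-gene fold changes, 1433 kept their direction and side of the threshold or were uncalled throughout, 62 lost a call, 23 gained one and 0 called values changed sign. The ribosomal RNA calls by age held under every alternative run. Calls among the mitochondrial genes, leaving out 1 library at a time, numbered 5 to 8 for aged against young anti-PD-1, 0 to 1 for aged anti-PD-1 against aged control, 1 to 10 for the combination against aged anti-PD-1 and 0 for the combination against aged control. With only the 2 groups compared in the fit, aged anti-PD-1 against aged control gave 0 and the combination against aged anti-PD-1 gave 3. Without the second and the third combination library (chosen after seeing the data) that comparison gave 0, and DESeq2 gave 3 for the combination against aged control.

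The replicate number as a block left 4 mitochondrial calls for the combination against aged anti-PD-1. Same-numbered libraries did not deviate together (correlation of residuals -0.210 to 0.210 over 18 pairs, median -0.0175), so the number was not taken as a pairing.

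Over all genes, calls numbered 1160 to 2237 for aged against young anti-PD-1 when 1 library was left out, 607 to 1995 for aged anti-PD-1 against aged control (881 with only those groups) and 260 to 1439 for the combination against aged anti-PD-1 (3038 with library totals alone, 2528 with DESeq2, 7 without both combination libraries). For the combination against aged control they were 0 to 13 (11 with no filter, 68 with DESeq2, 15 without both combination libraries). Library totals alone moved the median of all genes in the combination against aged anti-PD-1 to -0.21 on the log2 scale. The causes were not tested.

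With mitochondrial, haemoglobin and immunoglobulin genes left out of the denominator, the combination group stood at 16.1% for all members, 14.9% for protein genes and 0.0426% for transfer RNAs. Per 100 protein gene counts, rather than all mitochondrial counts, ribosomal RNAs stood at 8.82 in aged anti-PD-1, transfer RNAs at 0.286, 0.325 and 0.287 in the combination, aged anti-PD-1 and aged control groups, and light-strand transcripts at 3.80 and 3.46 in aged anti-PD-1 and aged control.

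The counts limit the 13 transfer RNAs with fewer than 25 counts, for which no difference was detectable at this depth, and mt-Atp8.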

Other observations

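mt-Ts1, the light-strand transfer RNA for serine that overlaps the end of mt-Co1 by 3 bases on the opposite strand, was the most uneven of the tested genes. It had 10.1, 86.5 and 58.1 CPM in the combination libraries, 18.7, 1.26 and 28.2 CPM in the aged anti-PD-1 libraries, 15.01, 4.23 and 15.8 CPM in the aged control libraries and 6.71, 10.6 and 3.38 CPM in the young anti-PD-1 libraries. Counts ran from 25 to 1352, so counting error does not set this spread, and no comparison called the gene. mt-Atp6 was likewise high in the second aged control library, at 326 CPM beside 83.4 and 119 CPM in the first and the third. That library also held 196 of the 225 counts of mt-Atp8, which overlaps mt-Atp6 by 43 bases.

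mt-Tp and mt-Te, which flank the cytochrome b gene on the light strand, had 4.11 ± 0.754 and 1.98 ± 0.550 counts per 100 mt-Nd6 counts in the combination group, 3.52 ± 0.358 and 2.44 ± 0.362 with anti-PD-1 in aged mice, 3.53 ± 0.236 and 2.24 ± 0.120 in aged control and 4.18 ± 0.194 and 2.15 ± 0.231 in young anti-PD-1 (SD, n = 3 each). Ciliated airway genes were lower in the aged anti-PD-1 group than in the aged control group for 2 of 6 (Rsph1 at -0.72 ± 0.16, adjusted p = 0.0157, and Tekt1 at -0.57 ± 0.14, adjusted p = 0.0231). Of all genes tested, 5.34% were higher and 5.58% lower there. In the same comparison 1 of 2 melanoma genes tested was lower (Mlana, -0.92 ± 0.26, adjusted p = 0.0361) and 1 of 4 B cell and plasma cell genes was higher (Ms4a1, 0.91 ± 0.23, adjusted p = 0.0261). On the alveolar macrophage list 1 of 4 genes was higher (Car4, 0.75 ± 0.21, adjusted p = 0.0379). The sums of that list overlapped, at 1543 to 2686 CPM in aged anti-PD-1 against 1283 to 2622 CPM in aged control. Melanoma genes summed to at most 9.61 CPM in any library, and brown fat genes were not called in any comparison. Nuclear-retained RNAs such as Malat1, taken as a sign of RNA quality, held 0 called genes in every comparison. They summed to 1089, 679 and 825 CPM in the combination libraries and 1209, 1200 and 998 CPM in aged anti-PD-1. In aged control the sums were 1094, 625 and 855 CPM, and in young anti-PD-1 1170, 988 and 859 CPM. In each aged group, though not in the young one, the lowest sum fell in the library with the highest mitochondrial share. The part of RNA quality in these shares was not tested. Small nuclear and nucleolar RNAs (34 of 2942 rows tested) also held 0 called genes in every comparison. Of 34 replication histone genes tested, 4 were higher and 2 lower in aged than in young anti-PD-1 mice, where 8.09% of all genes tested were higher and 7.16% lower. There were 0 higher and 1 lower in the aged anti-PD-1 than in the aged control group (5.34% and 5.58% of all genes), and 1 higher and 0 lower in the combination than with anti-PD-1 alone (4.67% and 4.35%), with 0 called between the combination and aged control groups. These last lists were chosen after their values were seen.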
